A study of Mus musculus with 24 samples.

Results

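Interferons signal through a short relay of receptors, kinases and transcription factors, and the mRNAs of 9 of its genes were followed across the MITF family knockouts of a mouse melanoma line. The genes were chosen by symbol, as Ifnar1 and Ifnar2 (receptor chains), Jak1 and Tyk2 (kinases), Stat2, and the interferon regulatory factors Irf1, Irf3, Irf7 and Irf9. All 9 were found among the 12010 genes of the deposited expression table.

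MITF, TFEB and TFE3 are related basic helix-loop-helix leucine zipper transcription factors, and the study compared what each of them does in melanoma cells. B16-F10 is a pigmented mouse melanoma line, used here with a luciferase reporter (luc2) in all cells, the controls included. The 8 lines were parental, MITF KO, TFE3 KO, TFEB KO, MITF/TFE3 DKO, MITF/TFEB DKO, TFEB/TFE3 DKO and the TKO that lacks all 3 factors, with 3 libraries each. TFEB and TFE3 were removed with Cas9 ribonucleoprotein, in parental cells for the lines that keep MITF and in MITF KO cells for the MITF/TFE3 DKO, the MITF/TFEB DKO and the TKO. Each KO line grew from an isolated clone, so that a difference between lines is also a difference between clones, and the 4 lines without MITF share 1 MITF KO origin. The cells were grown as a monolayer in DMEM with serum, and no interferon or other agent is named in the labels. Poly(A) RNA was read from its 3′ end (QuantSeq Forward). The labels number the libraries of a line without saying whether they came from separate cultures, so that p-values measure the spread between these libraries.

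In the canonical pathway, type I interferon binds IFNAR1 and IFNAR2, whose cytoplasmic tails carry the kinases TYK2 and JAK1. The kinases phosphorylate STAT2, which acts with IRF9 in ISGF3, the factor that binds interferon-stimulated response elements (ISREs) and switches on antiviral genes. IRF3 and IRF7 act at the other end of the loop, where they are activated by nucleic acid sensing and induce interferon itself, and Stat2, Irf1, Irf7 and Irf9 are themselves interferon-inducible genes.

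Depth on genes ran from 18300902 to 26667877 reads a library. Tfeb lay between 2.06 and 5.27 CPM in the 12 libraries without TFEB and between 7.87 and 22.7 CPM in the other 12. Tfe3 lay between 8.01 and 21.7 CPM without TFE3 and between 31.1 and 62.5 CPM with it. Mitf mRNA remained in the MITF KO, at 1364, 1470 and 1358 CPM against 763, 768 and 797 CPM in parental cells, and so does not check that label. The paper describes a frameshift in this KO and says that a little truncated MITF may still be made there. Lines without MITF are named so here by their label. All 9 melanocyte markers listed were in the table, with a summed level of 26530 to 27400 CPM in parental libraries, 38760 to 40690 CPM for the MITF KO, 30250 to 33060 CPM for the MITF/TFE3 DKO, 17230 to 19710 CPM for the MITF/TFEB DKO and 15870 to 16910 CPM for the TKO. Dct was the largest part of this sum, with means of 17750 CPM in parental cells and 29020 CPM in the MITF KO. The markers did not all move with the sum. Tyrp1 was also higher in the MITF KO (2571 and 3793 CPM), but Mlana (799 and 488 CPM) and Gpr143 (18.3 and 7.97 CPM) were lower. Of 6 leukocyte markers only Cd68 was in the table, at 1.74 CPM or less, and of 4 fibroblast markers only Col1a1, at 7.84 CPM or less. Of 3 endothelial markers only Pecam1 was in the table, at 7.73 to 8.59 CPM in parental cells, 0.48 CPM or less in the MITF KO, 1.10 to 2.03 CPM for the MITF/TFE3 DKO, 0.627 CPM or less in the MITF/TFEB DKO, 0.215 CPM or less in the TKO and 25.5 to 31.6 CPM for the TFEB/TFE3 DKO. The part of these markers in the results was not tested.

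Levels are TMM-scaled read counts scaled to a common library size (CPM). As a library gives about one fragment per transcript end, levels were not divided by length. Log2 fold changes are differences of log2(CPM + 1), fitted by limma across all genes and all 24 libraries. Their p-values were adjusted by the Benjamini-Hochberg method over the 12010 genes. Each ± gives the SE of a log2 fold change or the SD of a level over 3 libraries. A value written as x-fold is instead the ratio of the mean CPM of the lines compared, and differs from the log2 value beside it. A gene was said to rise or fall where its log2 fold change was at least 1 in size at p under 0.05. This is the 2-fold threshold of the study.

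The receptor and kinase mRNAs and Irf3 passed this threshold in no comparison, whereas Stat2, Irf1, Irf7 and Irf9 all fell in the MITF KO. Each of these 4 stood above its MITF KO level in both double knockouts without MITF, and Stat2, Irf7 and Irf9 fell in the TKO. Between the lowest and highest line means Irf9 differed 40.9-fold, Stat2 14.4-fold and Irf1 2.94-fold, against 2.02-fold for Ifnar2, 1.56-fold for Tyk2, 1.46-fold for Jak1, 1.42-fold for Irf3 and 1.32-fold for Ifnar1. Irf7 ranged from 0 to 1.93 CPM. In bulk RNA, fewer cells expressing a gene and less RNA per cell cannot be told apart.

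**Figure D1:**
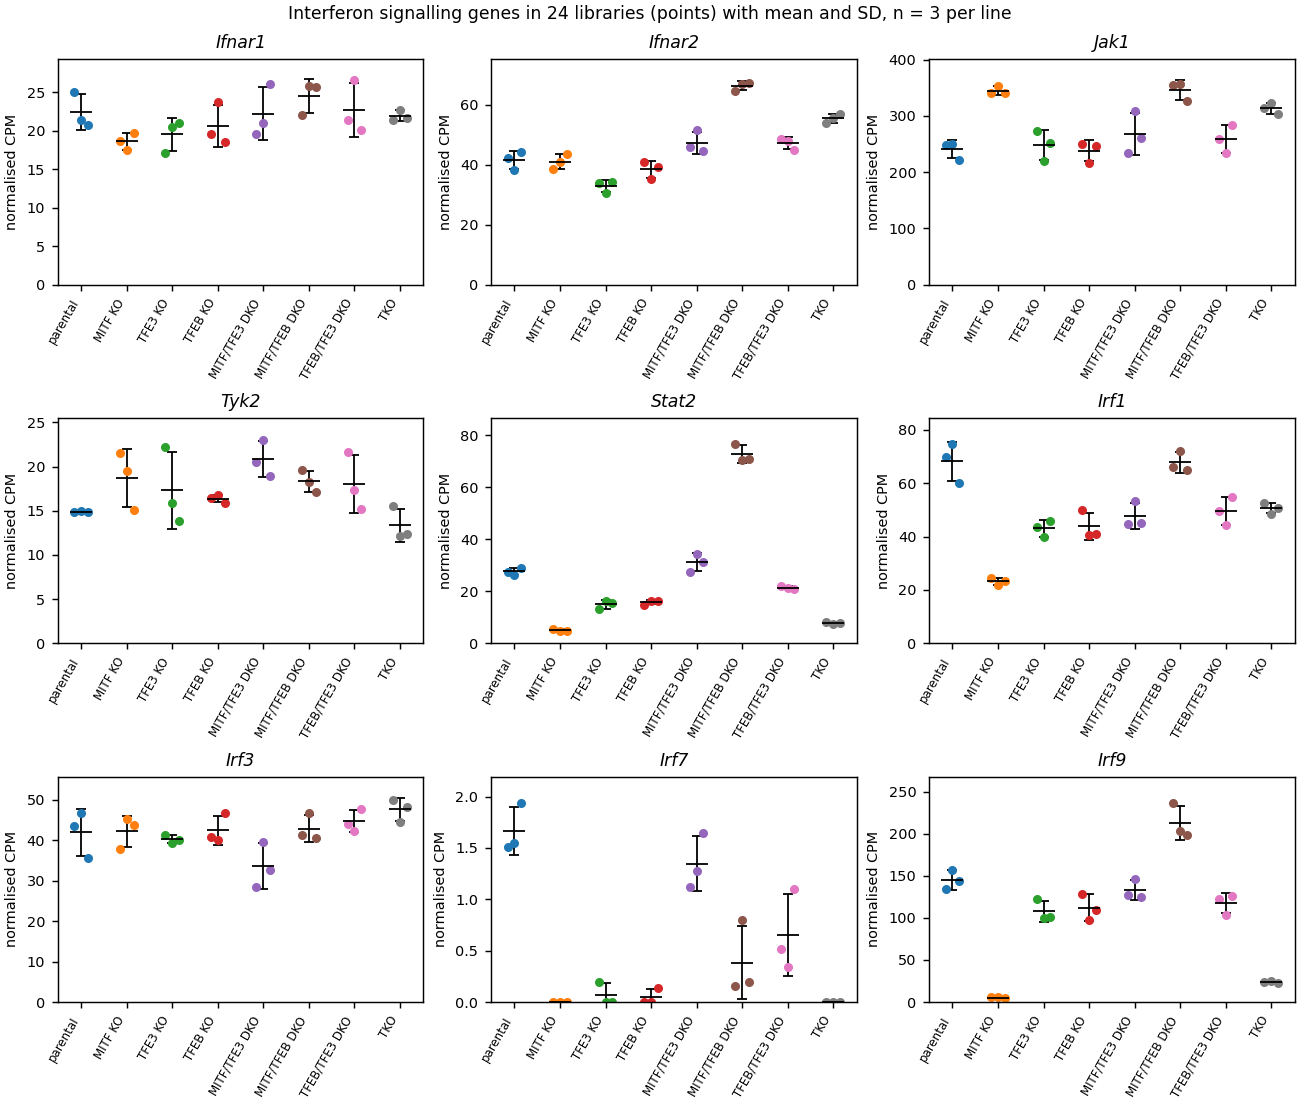
Levels of the 9 genes in every library, in normalised CPM (vertical axes start at 0), by cell line. Points are libraries, and the horizontal line and bars give the mean and SD over 3 libraries. Ifnar1, Tyk2 and Irf3 stay within a narrow band, while Stat2 and Irf9 are lowest in the MITF KO, near 5 CPM, and highest in the MITF/TFEB DKO.

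Ifnar1 (ENSMUSG00000022967, chr16:91281942-91305789, plus strand of mm39) encodes the receptor chain that binds TYK2. It lay between 17.1 and 26.6 CPM over all 24 libraries, and each line overlapped its neighbour in the order of the line means. The lowest mean was 18.6 ± 1.06 CPM for the MITF KO and the highest 24.5 ± 2.18 CPM for the MITF/TFEB DKO. The difference of the MITF KO from parental was -0.25 ± 0.13 (log2, adjusted p = 0.12, 95% interval -0.52 to 0.01), and that of the TKO was -0.02 (95% interval -0.29 to 0.24).

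Ifnar2 (ENSMUSG00000022971, chr16:91169618-91202723, plus strand) encodes the partner chain that binds JAK1 and lies beside Ifnar1. It was at 42.1, 38.3 and 44.1 CPM in parental libraries, at 38.7, 40.8 and 43.5 CPM for the MITF KO, at 64.6, 67.0 and 67.3 CPM for the MITF/TFEB DKO and at 54.1, 55.6 and 57.1 CPM for the TKO. The MITF/TFEB DKO libraries were above those of every other line and the TKO libraries above the remaining 6 lines. These differences stayed under the 2-fold threshold, at 0.66 ± 0.08 for the MITF/TFEB DKO against parental (log2, adjusted p = 4.7e-07) and 0.41 ± 0.08 for the TKO (adjusted p = 2.0e-04). In the TFE3 KO it lay at the other end, at 33.8, 30.6 and 34.2 CPM, -0.33 ± 0.08 against parental (adjusted p = 0.011). The 100 genes nearest to Ifnar2 on chromosome 16, which reach up to 46.6 megabases away, had a median of -0.30 there. Ifnar2 differed from them by -0.03. Their median was 0.23 for the MITF/TFEB DKO and 0.23 for the TKO, and Ifnar2 exceeded them by 0.44 and 0.18. The ratio of Ifnar2 to Ifnar1 in a library averaged 1.86 ± 0.23 in parental cells, 2.72 ± 0.19 for the MITF/TFEB DKO and 2.53 ± 0.10 for the TKO, where every library of the latter lines was above every parental library.

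Jak1 (ENSMUSG00000028530, chr4:101008838-101122487, minus strand), the kinase shared by the receptors of all interferon types, was the most abundant of the 9. It was at 249, 251 and 222 CPM in parental libraries, 341, 353 and 340 CPM for the MITF KO, 356, 357 and 326 CPM for the MITF/TFEB DKO and 313, 324 and 304 CPM for the TKO. These 3 lines lay above all parental libraries, by 0.52 ± 0.10 (MITF KO, log2, adjusted p = 1.9e-04), 0.52 ± 0.10 (MITF/TFEB DKO, adjusted p = 8.2e-05) and 0.38 ± 0.10 (TKO, adjusted p = 0.0019), each under 2-fold. In the MITF/TFE3 DKO, at 234, 308 and 259.8 CPM, the libraries overlapped those of parental cells and the difference was 0.14 ± 0.10 (adjusted p = 0.24). The last 500 bases of Jak1 overlap an exon of Raver2 on the opposite strand, and the strand setting of the counting was not given in the sources used here.

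Tyk2 (ENSMUSG00000032175, chr9:21015363-21042689, minus strand), the kinase bound to IFNAR1, lay between 12.1 and 23.0 CPM in all libraries. It was highest in the MITF/TFE3 DKO at 20.5, 23.0 and 19.0 CPM, 0.45 ± 0.15 above parental (log2, adjusted p = 0.022), and lowest in the TKO at 15.5, 12.1 and 12.4 CPM. The TKO libraries were all below those of the MITF/TFE3 DKO, by -0.61 ± 0.15 (log2, adjusted p = 0.0021), while they overlapped the parental libraries. Thus neither the receptor chains nor the kinases passed the threshold in any comparison.

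STAT2 is the STAT that couples the type I receptor to IRF9. Stat2 (ENSMUSG00000040033, chr10:128106352-128128735, plus strand) was at 27.4, 26.3 and 29.1 CPM in parental libraries, 5.37, 4.90 and 4.90 CPM for the MITF KO, 27.5, 34.4 and 31.4 CPM for the MITF/TFE3 DKO, 76.7, 70.6 and 70.7 CPM for the MITF/TFEB DKO and 8.12, 7.23 and 7.83 CPM for the TKO. The MITF KO and TKO libraries were below all others without overlap between them, the MITF/TFE3 DKO overlapped parental cells, and the MITF/TFEB DKO was above every other line. In lines that keep MITF it was at 13.1, 16.4 and 15.4 CPM for the TFE3 KO, 14.9, 16.2 and 16.3 CPM for the TFEB KO and 22.1, 21.1 and 21.0 CPM for the TFEB/TFE3 DKO, all below the parental libraries and above those of the TKO.

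Stat2 mRNA fell 5.46-fold in the MITF KO (log2 fold change -2.24 ± 0.10, adjusted p = 2.0e-14) and 3.58-fold in the TKO (-1.71 ± 0.10, adjusted p = 1.4e-12). It rose 2.63-fold in the MITF/TFEB DKO (1.36 ± 0.10, adjusted p = 1.1e-10). In the single TFE3 KO and TFEB KO the values were -0.85 ± 0.10 (adjusted p = 3.5e-06) and -0.77 ± 0.10 (adjusted p = 2.4e-05), under the 2-fold threshold, and in the TFEB/TFE3 DKO -0.35 ± 0.10 (adjusted p = 0.031). The 100 genes nearest to Stat2 on chromosome 10, which reach up to 25.3 megabases away, had a median of 0.38 (log2, MITF/TFEB DKO against parental). That of all genes was 0.01, and Stat2 exceeded its neighbours by 0.98. In the TKO these neighbours had a median of 0.31, opposite to Stat2, and in the MITF/TFE3 DKO one of 0.27.

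IRF9 is the DNA-binding subunit of ISGF3. Irf9 (ENSMUSG00000002325, chr14:55841028-55847812, plus strand) was at 134, 157 and 144 CPM in parental libraries, 5.60, 5.54 and 4.47 CPM for the MITF KO, 128, 146 and 124 CPM for the MITF/TFE3 DKO, 237, 203 and 199 CPM for the MITF/TFEB DKO and 24.2, 24.5 and 23.1 CPM for the TKO. The order of the lines thus began and ended as for Stat2, with the MITF KO lowest, the TKO next and the MITF/TFEB DKO highest, and none of these 3 overlapped any other line. The TFE3 KO was at 122, 100.1 and 101 CPM, the TFEB KO at 129, 97.2 and 109.5 CPM and the TFEB/TFE3 DKO at 122, 104 and 126 CPM, overlapping each other and below every parental library.

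Irf9 mRNA fell 27.9-fold in the MITF KO (log2 fold change -4.56 ± 0.11, adjusted p = 9.6e-20), from 145 ± 11.5 to 5.20 ± 0.638 CPM, and 6.07-fold in the TKO (-2.55 ± 0.11, adjusted p = 6.1e-15). The MITF/TFEB DKO was 1.47-fold above parental cells, at 0.55 ± 0.11 (adjusted p = 2.6e-04), short of the threshold that Stat2 passed. The TFE3 KO, TFEB KO and TFEB/TFE3 DKO differed from parental by -0.43, -0.38 and -0.31, with adjusted p of 0.014, 0.053 and 0.097.

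Irf9 and Stat2 did not change in proportion. Irf9 CPM were 5.28 ± 0.602 times Stat2 CPM in parental libraries, but 1.03 ± 0.111 times for the MITF KO, 3.11 ± 0.251 times for the TKO and 2.93 ± 0.142 times for the MITF/TFEB DKO. The libraries of these 3 lines, and those of the MITF/TFE3 DKO at 4.65, 4.26 and 3.96, were all below the lowest parental ratio of 4.90. The ratio averaged 4.29 ± 0.343 for the MITF/TFE3 DKO, 5.49 ± 0.539 for the TFEB/TFE3 DKO, 7.34 ± 1.72 for the TFE3 KO and 7.12 ± 1.39 for the TFEB KO. The ratio was thus below that of parental cells in all 4 lines without MITF.

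**Figure D2:**
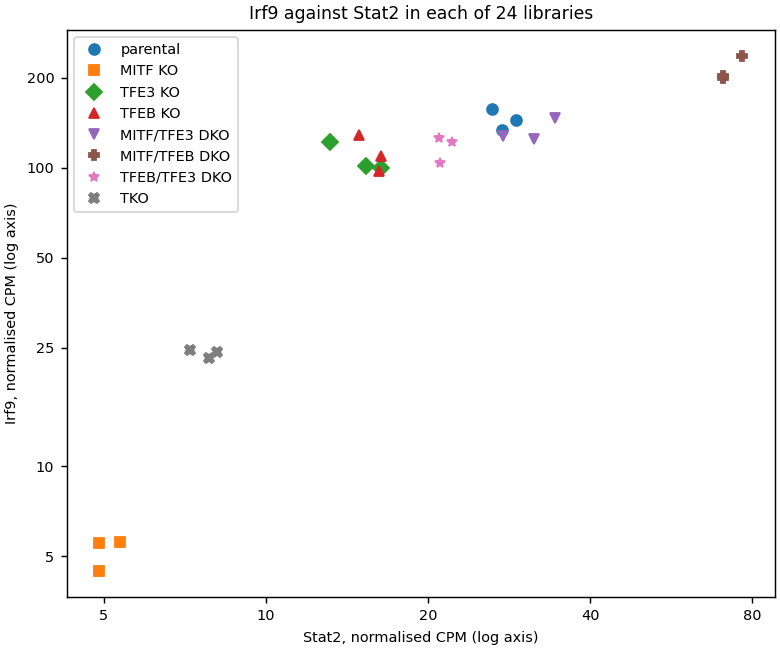
Irf9 against Stat2 in each of the 24 libraries, in normalised CPM on log axes, with a symbol for each line. The MITF KO libraries lie at the bottom left, near 5 CPM for each gene, the TKO libraries next, and the MITF/TFEB DKO libraries at the top right, at 70.6 to 76.7 CPM of Stat2.

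Stat2, Irf9 and Irf1 fell in the MITF KO, and sequences before their start sites are shown, from RefSeq. Irf7 also fell there, on few reads, and its sequence is not printed. RefSeq gave promoter windows for all 9 genes, at 11 start sites, on GRCm38.p6, and each was placed on GRCm39 (mm39) by a unique exact match. The windows printed hold the 250 bases before a start site, 5′ to 3′ on the gene's own strand. Capitals mark an ISRE core (GAAANNGAA on either strand) or a gamma-activated sequence (GAS, TTCNNNGAA, the same on both strands), the element bound by STAT dimers. The windows are chr10:128106117-128106366 for Stat2, chr11:53660591-53660840 for the first of the pair of Irf1 start sites, and chr14:55841192-55841441 and chr14:55841786-55842035 for the pair of Irf9 start sites, both of which lie within the span of the gene.
Stat2: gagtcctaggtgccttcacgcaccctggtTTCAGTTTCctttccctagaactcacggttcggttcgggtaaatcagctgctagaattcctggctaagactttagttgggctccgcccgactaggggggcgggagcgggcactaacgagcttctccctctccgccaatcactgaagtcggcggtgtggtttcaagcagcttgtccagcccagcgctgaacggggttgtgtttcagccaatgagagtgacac
Irf1, first start site: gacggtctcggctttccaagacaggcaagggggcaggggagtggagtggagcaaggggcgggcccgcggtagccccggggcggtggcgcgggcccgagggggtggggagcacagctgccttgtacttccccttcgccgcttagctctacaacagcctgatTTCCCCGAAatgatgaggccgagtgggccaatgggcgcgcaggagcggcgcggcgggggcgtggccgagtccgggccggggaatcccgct
Irf9, first start site: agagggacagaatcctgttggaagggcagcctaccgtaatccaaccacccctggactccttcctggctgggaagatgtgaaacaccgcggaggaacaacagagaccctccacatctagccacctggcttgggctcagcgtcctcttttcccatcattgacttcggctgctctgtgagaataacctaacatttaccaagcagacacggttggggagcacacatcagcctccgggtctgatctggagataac
Irf9, second start site: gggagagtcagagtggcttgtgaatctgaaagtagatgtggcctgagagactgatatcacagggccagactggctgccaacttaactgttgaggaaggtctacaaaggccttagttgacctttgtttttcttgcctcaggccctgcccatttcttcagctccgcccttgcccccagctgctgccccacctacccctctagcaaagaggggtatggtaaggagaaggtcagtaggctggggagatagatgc

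Searched over the whole 300 bases, which add the first 50 of the transcript, the ISRE core was present in 1 of the 11 windows, that of Stat2, from base -221 to -213. It was present in 8.56% of all 32851 promoter windows. A GAS was present in 3 of the 11, at Irf1 (-90 to -82), Ifnar1 and Ifnar2, against 8.3% of all windows. The E-box CACGTG, the element bound by MITF family dimers, was in none of the 11 and in 7.15% of all windows, and the M-box core CATGTG, on either strand, was likewise in none and in 14.2% of all. No window of Irf9 held any of these letters, which describes these windows alone.

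Irf1 (ENSMUSG00000018899, chr11:53660812-53669200, plus strand) encodes the founding member of the IRF family, which drives antigen presentation and other genes downstream of type II interferon. It was at 69.8, 74.6 and 60.2 CPM in parental libraries, 24.3, 21.8 and 23.4 CPM for the MITF KO, 44.8, 53.4 and 45.0 CPM for the MITF/TFE3 DKO, 66.1, 72.1 and 65.0 CPM for the MITF/TFEB DKO and 52.5, 48.6 and 50.8 CPM for the TKO. The MITF KO was below every other line, the MITF/TFEB DKO overlapped parental cells, and the other 5 lines formed a middle group whose neighbours overlapped. Unlike Stat2 and Irf9, Irf1 in the TKO overlapped the MITF/TFE3 DKO.

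Irf1 fell 2.94-fold in the MITF KO (log2 fold change -1.51 ± 0.10, adjusted p = 5.0e-11). In the middle group its differences from parental cells were all under 2-fold, from -0.65 ± 0.10 in the TFE3 KO (adjusted p = 1.6e-04) to -0.42 ± 0.10 in the TKO (adjusted p = 0.0016), with every library below the parental ones. In the MITF/TFEB DKO the difference was -0.01 ± 0.10 (adjusted p = 0.97). The end of Irf1 overlaps the lncRNA Gm12216 on the opposite strand.

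Irf3 (ENSMUSG00000003184, chr7:44647033-44652272, plus strand) encodes the factor that is present before infection and is activated by TBK1. It lay between 28.5 and 50.05 CPM in all libraries. In parental cells it was at 43.5, 46.7 and 35.5 CPM, in the MITF KO at 37.9, 45.2 and 43.6 CPM (log2 difference 0.02, 95% interval -0.22 to 0.25) and in the TKO at 50.05, 44.4 and 48.3 CPM (0.19, 95% interval -0.05 to 0.42). Irf3 was lowest in the MITF/TFE3 DKO, at 28.5, 39.6 and 32.6 CPM and -0.32 ± 0.11 from parental (adjusted p = 0.03). The 100 genes nearest to it on chromosome 7, up to 11.1 megabases away, had a median of -0.30.

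Irf7 (ENSMUSG00000025498, chr7:140842619-140846398, minus strand) encodes the inducible factor that amplifies interferon production. It was the scarcest of the 9, with only 1.20% of genes in the table at a lower mean. In parental libraries it had 35, 34 and 43 reads, or 1.51, 1.55 and 1.93 CPM. No read was counted in any of the 3 MITF KO or the 3 TKO libraries, so that it was at least 10.2-fold lower in the MITF KO and at least 11.7-fold lower in the TKO, against a floor of 3 reads in a library. The TFE3 KO held 4, 0 and 0 reads and the TFEB KO 0, 0 and 3, the latter a ratio of parental to TFEB KO of 34.5 (exact 95% counting interval 11.5 to 169.7).

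The MITF/TFE3 DKO held 27, 27 and 36 reads of Irf7, overlapping parental cells, whereas the MITF/TFEB DKO held 4, 19 and 5 and the TFEB/TFE3 DKO 13, 7 and 23, all below the parental libraries. Irf7 thus had its highest level among the lines without MITF in the MITF/TFE3 DKO, whereas Stat2 and Irf9 were highest in the MITF/TFEB DKO. It fell in the MITF KO (adjusted p = 8.4e-07), the TFE3 KO (adjusted p = 1.2e-05), the TFEB KO (adjusted p = 1.5e-05) and the TKO (adjusted p = 3.2e-07). With a pseudocount of 5 CPM in place of 1 none of these passed the 2-fold threshold. The end of Irf7 overlaps Phrf1 by 63 bases on the opposite strand, and Phrf1 averaged 96.1 CPM.

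Counted over the 9 genes, 4 fell and 0 rose in the MITF KO, where 2.99% of all genes fell and 3.29% rose. The 4 were Stat2, Irf1, Irf7 and Irf9. In the TKO 3 fell and 0 rose, where 6.41% of all genes fell and 8.28% rose, Irf1 being the gene that fell in the MITF KO and did not pass in the TKO. In the TFE3 KO and the TFEB KO 1 gene fell in each, Irf7, and 0 rose, beside 1.34% and 0.591% of all genes that fell and 0.366% and 0.192% that rose. Of the double knockouts, the MITF/TFEB DKO had 1 gene that rose by limma, Stat2, and 0 that fell (8.78% of all genes rose and 4.94% fell). Irf7 was just under the threshold there by limma (-0.97 ± 0.17) and fell by edgeR on whole reads (log2 fold change -2.11, adjusted p = 0.011). The MITF/TFE3 DKO and the TFEB/TFE3 DKO had none in either direction by limma, beside 3.5% higher and 2.37% lower in the former and 0.575% higher and 0.383% lower in the latter. At an unadjusted p under 0.05 without the fold threshold, 4 genes of the 9 differed for the MITF/TFE3 DKO and 5 for the TFEB/TFE3 DKO, and edgeR with the fold threshold called 0 and 1. The share of all genes at that p alone is not given here, so that these 2 counts are not read as a result about the 9 genes.

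**Figure D3:**
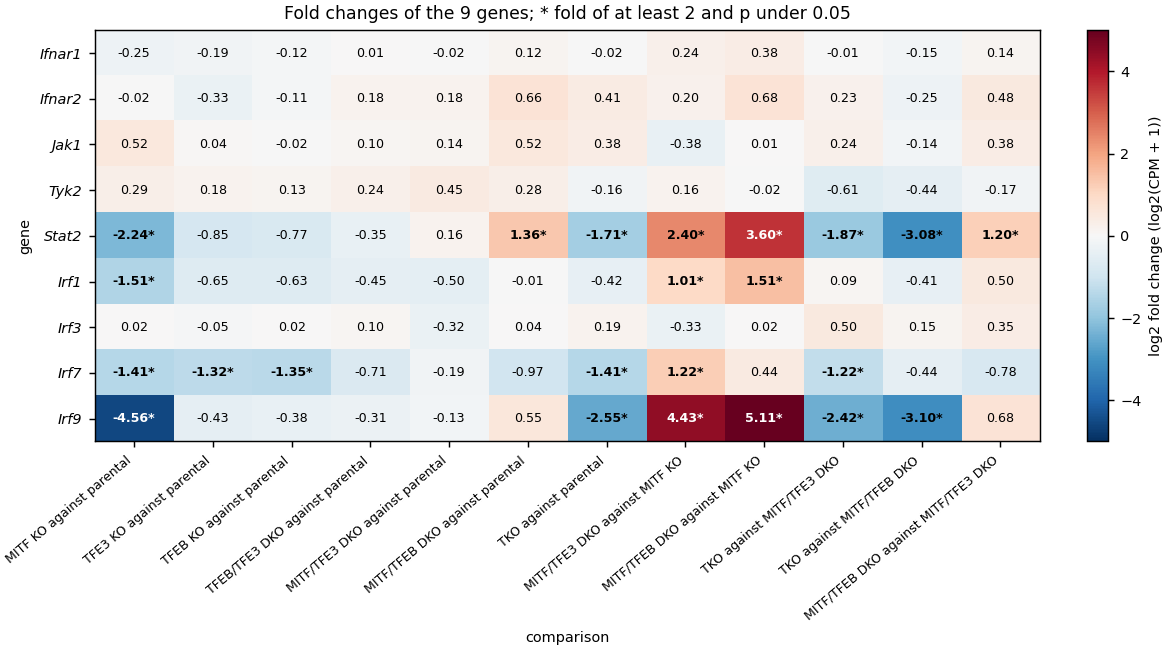
Log2 fold changes, on log2(CPM + 1), of the 9 genes (rows) in 12 comparisons (columns), with the colour running from -5 (blue) to 5 (red). An asterisk and bold type mark a fold of at least 2 at p under 0.05. The rows of Ifnar1, Ifnar2, Jak1, Tyk2 and Irf3 hold no asterisk, and the strongest colours are those of Irf9, from -4.56 in the MITF KO to 5.11 between the MITF KO and the MITF/TFEB DKO.

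The next comparisons were between lines without MITF that differ in TFE3 or TFEB. Each of these lines is a clone, so that the loss of a factor and a property of the clone cannot be told apart. Stat2 was 6.15-fold higher in the MITF/TFE3 DKO than in the MITF KO (log2 fold change 2.40 ± 0.10, adjusted p = 6.1e-15). Irf9 was 25.5-fold higher (4.43 ± 0.11, adjusted p = 2.0e-19) and Irf1 2.06-fold (1.01 ± 0.10, adjusted p = 1.1e-07). Irf7 had 0 reads in the MITF KO and 27 or more in every library of the MITF/TFE3 DKO. Irf1 stood at the edge of the threshold, and without the second MITF/TFE3 DKO library its log2 fold change was 0.93, and without the second MITF KO library 0.97. Of the 9 genes 4 rose and 0 fell, beside 3.39% of all genes that rose and 1.67% that fell.

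Stat2 was 14.4-fold higher in the MITF/TFEB DKO, again a clone, than in the MITF KO (3.60 ± 0.10, adjusted p = 1.0e-18). Irf9 was 40.9-fold higher (5.11 ± 0.11, adjusted p = 8.0e-21) and Irf1 2.92-fold (1.51 ± 0.10, adjusted p = 3.2e-11). These 3 rose and 0 fell, where 6.91% of all genes rose and 3.99% fell. Irf7 was at 0.44 ± 0.17 (adjusted p = 0.039), from 0 to 4, 19 and 5 reads, and passed by edgeR on whole reads (adjusted p = 0.0049) and with a pseudocount of 0.25 (1.21). Ifnar2 was 0.68 ± 0.08 higher (log2, adjusted p = 4.4e-07), under the threshold.

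Against the MITF/TFE3 DKO, a separate clone, Stat2 was 4.02-fold lower in the TKO, which also lacks TFEB (-1.87 ± 0.10, adjusted p = 4.6e-13). Irf9 was 5.55-fold lower there (-2.42 ± 0.11, adjusted p = 2.4e-14), and Irf7 was at 0 reads against 27 or more. Of the 9 genes 3 fell and 0 rose, beside 5.75% and 5.69% of all genes. Irf1 was at 0.09 ± 0.10 (adjusted p = 0.51). The neighbours of Irf7 on chromosome 7, up to 13.4 megabases away, had a median of 0.49 in this comparison, opposite to Irf7. Those of Irf3 had a median of 0.46, close to the value of Irf3 itself at 0.50 ± 0.11 (adjusted p = 8.3e-04).

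Against the MITF/TFEB DKO, also a separate clone, Stat2 was 9.40-fold lower in the TKO, which also lacks TFE3 (-3.08 ± 0.10, adjusted p = 4.7e-17). Irf9 was 8.90-fold lower there (-3.10 ± 0.11, adjusted p = 3.1e-16). These 2 fell and 0 rose, where 1.98% of all genes fell and 0.316% rose. Irf7 was at -0.44 ± 0.17 (adjusted p = 0.11), but passed by edgeR on whole reads (adjusted p = 0.015) and with a pseudocount of 0.25 (-1.21). Irf1 was 1.34-fold lower (-0.41 ± 0.10, adjusted p = 0.0091). Between both double knockouts without MITF, Stat2 was 2.34-fold higher in the MITF/TFEB DKO (1.20 ± 0.10, adjusted p = 1.5e-09). It was the 1 gene of the 9 that passed, and 0 were lower, beside 5.7% and 4.05% of all genes higher and lower. Irf9 was at 0.68 ± 0.11 (adjusted p = 3.2e-05), Irf1 at 0.50 ± 0.10 (adjusted p = 3.8e-04) and Irf7 at -0.78 ± 0.17 (adjusted p = 6.7e-04).

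The effect of losing 1 factor was then compared with and without MITF, as an interaction in the same fit. Stat2 in the line without TFEB differed by -0.77 from the line with TFEB where MITF was kept, and by 3.60 where it was lost. The difference was 4.37 ± 0.14 (log2, adjusted p = 3.3e-17). For Irf9 the values were -0.38 and 5.11, a difference of 5.49 ± 0.16 (adjusted p = 2.7e-18). For Irf1 the difference was 2.13 ± 0.15 (adjusted p = 5.4e-11). Loss of TFE3 gave differences of 3.25 ± 0.14 for Stat2 (adjusted p = 1.7e-14), 4.86 ± 0.16 for Irf9 (adjusted p = 4.1e-17) and 1.66 ± 0.15 for Irf1 (adjusted p = 9.3e-09). Of the 9 genes 4 passed for TFEB and 4 for TFE3, among them Irf7 on its few reads, beside 12.1% and 6.09% of all genes at a log2 difference of at least 1 and adjusted p under 0.05.

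With TFE3 also lost, Stat2 and Irf9 were higher than in the MITF KO but lower than in the MITF/TFEB DKO. These changes were compared in the same way. The difference was -5.48 ± 0.14 for Stat2 (log2, adjusted p = 2.3e-19), -7.53 ± 0.16 for Irf9 (adjusted p = 2.7e-21) and -1.42 ± 0.15 for Irf1 (adjusted p = 1.1e-07). With Irf7, 4 of the 9 genes passed, beside 7.99% of all genes. Ifnar1, Ifnar2, Jak1, Tyk2 and Irf3 passed in none of the 3 interactions, although Ifnar2 differed by 0.79 ± 0.12 for TFEB (adjusted p = 1.4e-05). These contrasts share the MITF KO libraries, and each further knockout line rests on a clone of its own.

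Other genes of the pathway were taken from lists. The median log2 fold change of 14 further receptors, JAKs, STATs and IRFs in the table was -0.06 in the MITF KO and 0.43 in the TKO, both against parental. Stat3, which transduces interleukin-6 and related cytokines, was among them. It was at 119.6, 112 and 105 CPM in parental libraries and 114, 96.9 and 109.9 CPM for the MITF KO, which overlapped, and at 264, 298 and 278 CPM for the MITF/TFEB DKO and 248, 260.2 and 273 CPM for the TKO. It rose by 1.31 ± 0.11 (log2) with both MITF and TFEB lost (adjusted p = 3.9e-10) and also in the TKO (1.21 ± 0.11, adjusted p = 1.4e-09). Irf2, an IRF that can repress interferon-responsive genes, was at 31.9, 41.2 and 37.3 CPM in parental libraries, 29.3, 33.9 and 26.8 CPM for the MITF KO and 86.5, 61.1 and 62.9 CPM for the MITF/TFEB DKO, where it rose against the MITF KO (1.19 ± 0.17, adjusted p = 2.9e-06). The median of these 14 genes against parental was 0.78 in the MITF/TFEB DKO, where 2 rose (Stat3 and Jak3) and the median of all genes was 0.01. As 8.78% of all genes rose there, the count of 2 is not read as a result about the list.

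Of 16 inhibitors and modifiers of the pathway 2 fell in the MITF KO, Usp18 and Socs3, and 1 in the TKO, Usp18 (medians -0.13 and -0.16). Of all genes 2.99% fell in the MITF KO and 6.41% in the TKO. The count of 1 in the TKO lies near that share and is not read as a result about the list. USP18 is an interferon-induced protein that binds IFNAR2 and shuts down signalling. Usp18 was at 186, 186 and 184 CPM in parental libraries, 0.471, 0.602 and 0.981 CPM for the MITF KO, 193, 230.3 and 179.5 CPM for the MITF/TFE3 DKO, 292, 273 and 256 CPM for the MITF/TFEB DKO and 2.33, 1.997 and 2.28 CPM for the TKO. The MITF KO had a log2 fold change of -6.80 ± 0.12 (adjusted p = 1.4e-22), larger than that of any of the 9 genes. Socs3, a feedback inhibitor of JAK signalling, was at 5.13, 4.32 and 3.46 CPM in parental libraries and 1.13, 0.803 and 1.64 CPM for the MITF KO (-1.28 ± 0.28, adjusted p = 8.6e-04).

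Of 13 adaptors and kinases that activate IRF3 and IRF7, none passed in either direction in the MITF KO by limma (median -0.13). Of all genes 3.29% rose and 2.99% fell there. Among the 13, 7 had an unadjusted p under 0.05 and edgeR called 0. The share of all genes at that p alone is not given here, so that the 7 are not read as a result. In the TKO 1 rose, Irak1 (1.03 ± 0.075, adjusted p = 6.6e-11), and 1 fell, Tbkbp1 (-1.64 ± 0.16, adjusted p = 9.6e-09), which encodes a TBK1-binding adaptor. These counts lie near the shares of all genes there, 8.28% higher and 6.41% lower, and are not read as a result about the 13. Myd88, the adaptor of most Toll-like receptors, was at 10.6, 11.2 and 14.1 CPM in parental libraries, 7.96, 6.55 and 7.63 CPM for the MITF KO and 19.0, 18.1 and 19.6 CPM for the MITF/TFE3 DKO, where it rose against the MITF KO (1.25 ± 0.16, adjusted p = 3.2e-06). The 9 interferon genes on the list of ligands had no row in the table used and were not analysed here.

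Downstream of the 9 genes, 27 of 29 interferon-stimulated genes fell in the MITF KO (median log2 fold change -4.26, all genes 0.001) and 27 of 29 in the TKO (median -2.88), and none rose in either. Of all genes 2.99% fell and 3.29% rose in the MITF KO, and 6.41% fell and 8.28% rose in the TKO. As this list was drawn up with earlier results of these libraries known, its direction is not independent evidence. Among lines that keep MITF, 14 fell for the TFE3 KO, 12 for the TFEB KO and 4 for the TFEB/TFE3 DKO, with medians of -0.86, -0.92 and -0.64. The shares of all genes that fell in these lines were 1.34%, 0.591% and 0.383%. Of the double knockouts without MITF, the MITF/TFE3 DKO had 0 that rose and 3 that fell (median -0.18), and the MITF/TFEB DKO 3 that rose and 1 that fell (median 0.21). Of all genes 3.5% rose and 2.37% fell in the former, and 8.78% rose and 4.94% fell in the latter. The counts of the MITF/TFEB DKO lie near these shares and are not read as a result about the list. Against the MITF KO 27 were higher in the MITF/TFE3 DKO (median 3.71) and 28 in the MITF/TFEB DKO (median 4.59), beside 3.39% and 6.91% of all genes. From the MITF/TFEB DKO to the TKO 28 fell (median -3.52), beside 1.98% of all genes. Irf9 itself was at -4.56 in the MITF KO and at -2.55 in the TKO.

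Ifit1, an antiviral protein that recognises foreign RNA, was at 379.8, 357 and 439.8 CPM in parental libraries, 6.12, 6.43 and 8.34 CPM for the MITF KO and 27.03, 27.7 and 26.4 CPM for the TKO. It fell by 5.63 ± 0.13 (log2) in the MITF KO (adjusted p = 1.7e-20) and by 3.81 ± 0.13 in the TKO (adjusted p = 3.4e-17). Mx1, a dynamin-like antiviral GTPase, was at 8.71, 12.1 and 14.0 CPM in parental libraries and 29.2, 25.9 and 28.8 CPM for the MITF/TFEB DKO, where it was 1 of the 3 that rose (1.22 ± 0.18, adjusted p = 3.6e-06). Ifit1 in the MITF/TFEB DKO, at 294, 360.2 and 388 CPM, overlapped parental cells.

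**Figure D4:**
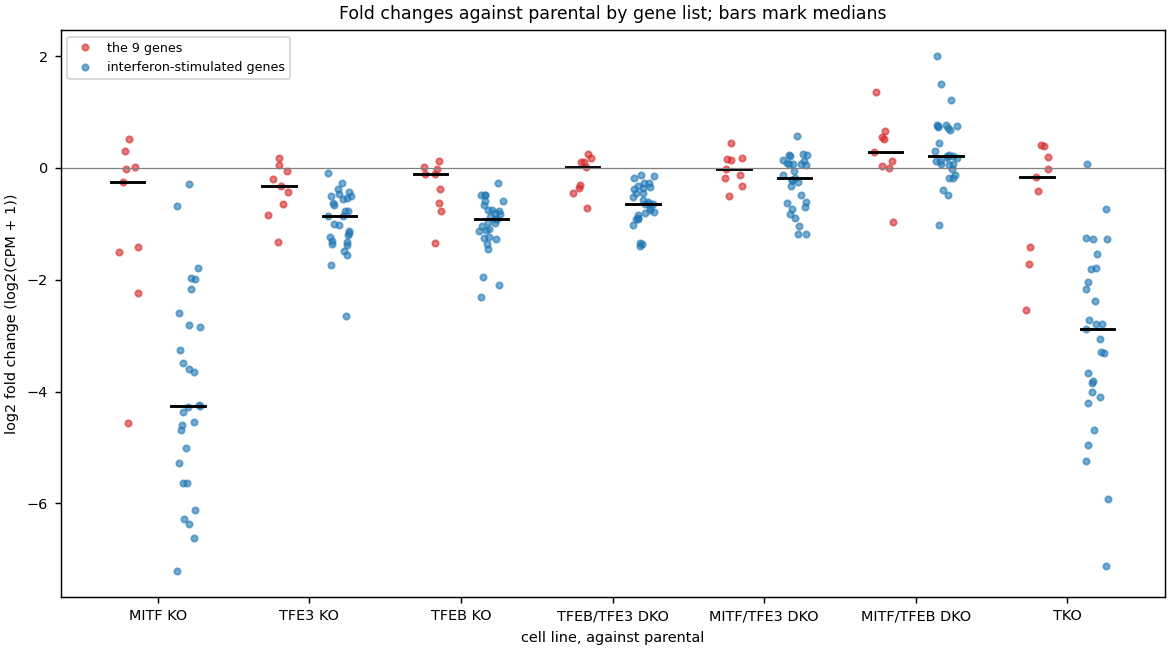
Log2 fold changes against parental, on log2(CPM + 1), in each KO line for the 9 genes (red) and 29 interferon-stimulated genes (blue). Points are genes and black bars are medians. The blue medians lie at -4.26 in the MITF KO and -2.88 in the TKO.

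To show which genes had a profile most like each of the 9, Pearson correlations of log2(CPM + 1) were taken over the 24 libraries, which are only 8 lines and share their depth and scaling, so that r is a description. Stat2 was most like Mx1 (r = 0.976), Tor3a (0.973) and Dhx58 (0.970). Irf9 was most like Gbp7 (0.995), Trim30a (0.993) and Ifi203 (0.992), and Irf1 most like Cxcl10 (0.922), Samhd1 (0.898) and Ccl5 (0.893). Among the 9 genes, r was 0.871 between Stat2 and Irf9, 0.803 between Irf1 and Irf9 and 0.761 between Stat2 and Irf1. Jak1 was most like Myo18a (0.938), Rab3gap1 and Ncdn, and Ifnar2 most like Junb (0.927), Cluap1 and Eci2. The highest r was 0.860 for Irf7 (Trim26), 0.833 for Irf3 (Emsy), 0.763 for Tyk2 (Gnb5) and 0.723 for Ifnar1 (1810013L24Rik). The profile of Irf7 rests on few reads.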

How the data were processed

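Poly(A) RNA of 24 B16-F10 libraries (8 lines, 3 each) was sequenced from the 3′ end. Per the submitters' processing notes, reads were checked with FastQC 0.11.9, trimmed with Trim Galore 0.6.5 and cutadapt 2.10 and mapped with STAR 2.7.8a to mm39. The authors normalised the counts with edgeR and deposited them as CPM scaled by TMM, a signal that is never negative. The counting tool, annotation and gene filter were not given in the sources used here. The table held 0 columns of other samples. From the steps between values, read numbers were worked back, and 99.99% came out whole within 0.05 of a read. Libraries held 18300902 to 26667877 reads, so that 3 reads, the floor for a gene without reads, came to about 0.13 CPM in the first parental library. Intervals and floors cover counting error only.

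Groups were taken from the labels. All genes were fitted on log2(CPM + 1), without a filter, with limma 3.58.1 (R 4.3.3) and a variance trend over all 24 libraries, leaving 16 residual degrees of freedom. The alternatives were edgeR 4.0.16 on the recovered reads, pseudocounts of 0.25 and 5, a mean of at least 5 CPM, median-of-ratios and quantile scaling, no variance trend, only the libraries compared, other thresholds, a replicate block and leaving out each library. The scripts were tested on simulated data. The 9 genes and all lists were chosen with earlier results of these data known. All 9 genes are named, as are at most 6 genes of each list, those called in the most comparisons and then with the largest fold, except a gene that is not reported here. The 3 genes most like each were taken among genes with a mean of at least 5 CPM. Gene positions came from GENCODE vM39 on GRCm39 (mm39) and promoters from RefSeq.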

Additional observations from a re-analysis of the deposited data

Results flagged for a closer look

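In 12 cases the effect of losing a factor differed between backgrounds by a test of the difference itself (limma interaction, log2 scale, 3 libraries per line). Loss of TFEB had a higher effect without MITF than with it for Stat2 (4.37), Irf9 (5.49), Irf1 (2.13) and Irf7 (1.79). Loss of TFE3 likewise had a higher effect without MITF, for Stat2 (3.25), Irf9 (4.86), Irf1 (1.66) and Irf7 (2.55). In cells without MITF, loss of TFE3 had a lower effect when TFEB was also absent than when it was present, for Stat2 (-5.48), Irf9 (-7.53), Irf1 (-1.42) and Irf7 (-1.66). The adjusted p was at most 1.9e-05 in these 12 cases, and the values of Irf7 rest on 43 reads or fewer in each library. With a pseudocount of 5 CPM in place of 1, the differences of Irf7 were 0.505, 0.738 and -0.448 in the order given, all under the threshold. Each KO line is a clone, so that the loss of a factor and a property of the clone cannot be told apart.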

How the results depend on the processing

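Over 135 gene results and their alternatives 2172 values were compared. Their side of the threshold and direction held in 2145, 13 no longer passed, 14 newly passed and 0 reversed. Of the 15 results with a changed call, 14 were of Irf7 and 1 of Irf1. The rest of this paragraph gives the numbers of the 9 genes called. edgeR on whole reads and a pseudocount of 0.25 each gave 1 in the TFEB/TFE3 DKO (0 in the report), 2 in the MITF/TFEB DKO (1 in the report), 2 between the MITF/TFEB DKO and the MITF/TFE3 DKO (1 in the report), 4 between the MITF/TFEB DKO and the MITF KO (3 in the report) and 3 between the TKO and the MITF/TFEB DKO (2 in the report). Quantile scaling gave 2 in the MITF/TFEB DKO. A pseudocount of 5, and a filter at a mean of 5 CPM, which removes Irf7, each gave 0 for the TFE3 KO and 0 for the TFEB KO. Each also gave 3 for the MITF KO and 3 in every interaction (4 in the report). For the TKO, and between the TKO and the MITF/TFE3 DKO, each gave 2 (3 in the report). Between the MITF/TFE3 DKO and the MITF KO (4 in the report) the pseudocount of 5 gave 2, and the filter and quantile scaling 3. An adjusted p under 0.05 without a fold threshold gave 5 for TFE3 KO, 3 for TFEB KO, 3 for TFEB/TFE3 DKO, 3 for MITF/TFE3 DKO, 5 for MITF/TFEB DKO, 6 for TKO, 6 between the MITF/TFEB DKO and the MITF KO, 7 between the TKO and the MITF/TFE3 DKO and 7 between the MITF/TFEB DKO and the MITF/TFE3 DKO. The share of all genes under that adjusted p is not given here, and the cause of these moves was not tested. Leaving out 1 library gave 1 to 2 in the MITF/TFEB DKO, where Irf7 passed without the first (-1.01) or the second (-1.001) parental library or the second library of that line (-1.17), and 3 to 4 between the MITF/TFE3 DKO and the MITF KO. Median-of-ratios, no variance trend and only the libraries compared left the count of each of the 12 comparisons and 3 interactions as reported.

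On average the replicate numbers did not pair the libraries, but single pairs varied widely. Correlations between same-numbered libraries ran from -0.66 to 0.77, and 42 of 84 were over 0.1. The mean correlation of deviations from the line means was 0.0222 between same-numbered libraries and -0.0126 between others, and 11 of 24 libraries were closest to one of their own number. With the replicate number as a block, the 9 genes gave 4 calls for the MITF KO, 3 for the TKO and 1 for the MITF/TFEB DKO, and the block moved no count. Depth limits mainly Irf7, whose lines with 0 reads allow up to the floor of 3 reads in a library.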
